A study of Mus musculus with 112 samples.

Results

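Control gastrocnemius muscles with the most transcript of tenomodulin (Tnmd) were set against those with the least, in a series on single-limb casting of Diversity Outbred mice. Of the 56 control limbs of the series, 46 were ranked by Tnmd CPM (the count of a gene divided by all counts of the library, times 1000000), and the 12 highest and 12 lowest were compared. These 24 limbs, chosen by their measured Tnmd level, are called tendon-rich and tendon-poor. The other 22 limbs form the middle of the ranking. The series holds 112 libraries, from the left and the right limb of each of 56 animals, and 10 animals were left out of the ranking. Of these 10 animals, 7 had a library with less than 50% of the median Acta1, the skeletal muscle actin, and no ranked animal had one. The animals were outbred, each with its own genotype, and 16 weeks old. Their right limb had spent 3 weeks in a cast while the left limb served as the control, so every control limb came from an animal that wore a cast. The labels name no transgene and no drug. Limbs were matched over the 500 genes most alike between the limbs of all animals but males 15 and 16. The cast limb of 54 of 56 animals was most like its own control limb. These animals took part in the choice of genes, which favours such a match, so it does not test their labels. The cast limbs of males 15 and 16 were most like each other's control limb. Both were kept as labelled. Male 16 is in the tendon-poor group, and without both animals 146 genes in place of 178 met the mark used for the control limbs, 270 in place of 275 passed in the slope over cast limbs, and the grouped cast limbs had 0 by edgeR in both cases, with 975 genes under an unadjusted p of 0.05 with them and 905 without them. Each library was made from bulk muscle, so more tendon cells and more RNA per tendon cell cannot be told apart here.

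Tnmd encodes a membrane glycoprotein of tendon cells, and Fmod encodes fibromodulin, a small leucine-rich proteoglycan that binds collagen fibrils and is abundant in tendon. Tendon cells are specified by the transcription factors Scx (scleraxis), Mkx (Mohawk) and Egr1 and Egr2, and they secrete type I collagen together with the proteins that space, cross-link and lubricate its fibrils. Muscle fibres meet this matrix at the myotendinous junction, which has its own collagen, Col22a1. A dissected gastrocnemius carries part of its aponeurosis and of the Achilles tendon, so bulk libraries of the muscle can hold tendon transcripts in varying amounts.

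Scleraxis is a basic helix-loop-helix protein, a class that binds E-boxes (CANNTG, the same pattern on both strands). The 250 bases before the annotated starts of Tnmd, Fmod, Chad and Angptl7 are shown because these genes chose the limbs, checked the choice, or differed most between the groups. The sequences are from RefSeq (GRCm38.p6), are written 5′ to 3′ on the gene's strand, and carry E-boxes in capitals.
Tnmd (chrX:133850758-133851007, plus strand): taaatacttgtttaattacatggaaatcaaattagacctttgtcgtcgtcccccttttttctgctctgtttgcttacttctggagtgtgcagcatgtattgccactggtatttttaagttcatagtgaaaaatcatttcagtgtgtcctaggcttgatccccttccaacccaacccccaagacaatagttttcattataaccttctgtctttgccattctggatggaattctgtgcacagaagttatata
Fmod (chr1:134037004-134037253, plus strand): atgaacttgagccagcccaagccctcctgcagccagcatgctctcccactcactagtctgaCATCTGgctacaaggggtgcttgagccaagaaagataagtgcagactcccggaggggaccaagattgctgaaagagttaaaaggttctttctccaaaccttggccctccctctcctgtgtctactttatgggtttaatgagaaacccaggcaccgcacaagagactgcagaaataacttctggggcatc
Chad (chr11:94564797-94565046, plus strand): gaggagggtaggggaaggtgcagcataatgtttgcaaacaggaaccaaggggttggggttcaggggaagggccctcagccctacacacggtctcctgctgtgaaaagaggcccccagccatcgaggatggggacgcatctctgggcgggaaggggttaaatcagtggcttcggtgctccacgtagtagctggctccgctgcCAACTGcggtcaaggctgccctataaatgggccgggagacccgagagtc
Angptl7 (chr4:148500463-148500712, minus strand): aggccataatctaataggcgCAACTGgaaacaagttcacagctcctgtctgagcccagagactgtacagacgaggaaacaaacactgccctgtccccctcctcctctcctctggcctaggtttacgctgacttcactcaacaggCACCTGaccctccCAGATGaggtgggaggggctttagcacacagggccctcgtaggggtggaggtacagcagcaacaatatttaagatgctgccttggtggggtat
No E-box stands in the Tnmd window, 1 in that of Fmod (CATCTG), 1 in that of Chad (CAACTG) and 3 in that of Angptl7. Of 20 tendon regulator and matrix genes looked up, 12 had an entry that was used and 7 of these held an E-box. Entries on 1 chromosome were passed over in this look-up, but not in the background that follows. Of all 32851 promoter windows of this length, 66.2% held at least 1, so a match is common and marks no binding.

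Tnmd itself, which chose the limbs, lay at 27.6 CPM in the lowest, 34.8 in the median and 78.6 in the highest tendon-rich limb. It lay at 0.227, 5.28 and 8.30 CPM in the lowest, median and highest tendon-poor limb. These levels rested on 103 to 289 counts of Tnmd per tendon-rich library and on 1 to 35 per tendon-poor library. The groups do not overlap by construction, and the limits of the groups fell in a continuous series of values. The last tendon-rich limb, of male 33, had 27.57 CPM, and the next limb in the ranking, of male 37, had 26.63. At the other end female 6 had 8.61 CPM and stayed in the middle, and male 19 had 8.30 and was taken as tendon-poor. Fmod was at 306, 448 and 1150 CPM (lowest, median, highest) in tendon-rich limbs and at 17.7, 92.6 and 336 in tendon-poor limbs. All but 1 limb in each group lay apart in Fmod. The exception was tendon-poor female 45 (336 CPM), which exceeded the lowest tendon-rich limb.

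**Figure D1:**
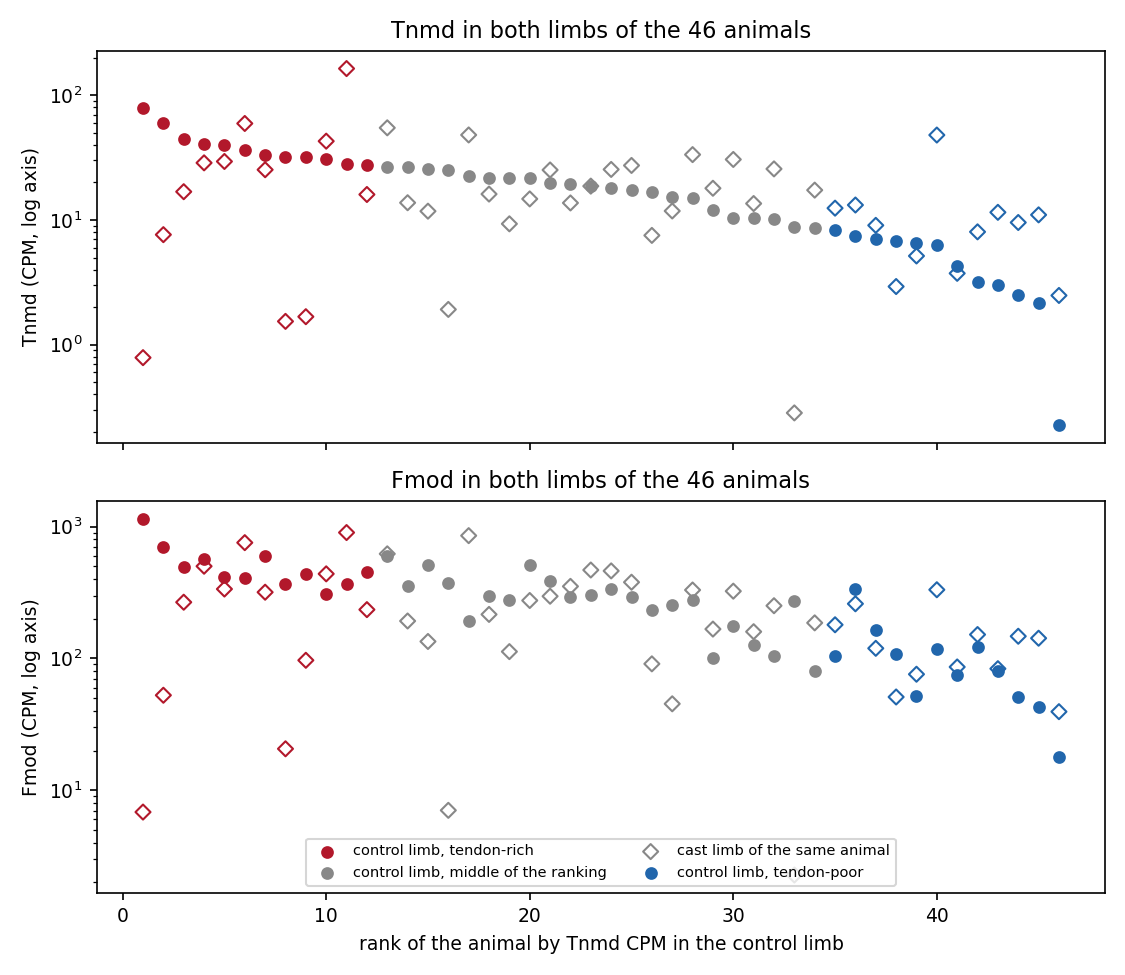
Tnmd and Fmod (CPM, log axes) in both limbs of the 46 animals, ordered by Tnmd in the control limb. Filled circles are control limbs, open diamonds are the cast limbs of the same animals in the colour of the animal's group. Fmod follows the ranking in control limbs, and the cast limbs of the 12 tendon-rich animals spread from 0.787 to 164 CPM of Tnmd.

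The skeletal muscle actin did not separate the groups, with a median Acta1 of 32290 CPM in tendon-rich and 31769 CPM in tendon-poor limbs. Total counts ran from 1716485 to 4820826 in tendon-rich libraries and from 3169641 to 5316810 in tendon-poor libraries. The share of counts from mitochondrial DNA had medians of 15.3% and 18.0%. The tendon-rich group held 5 females and 7 males and the tendon-poor group 4 females and 8 males (Fisher's exact test, two-sided, p = 1). Over all 46 control limbs, Tnmd differed between the sexes by 0.34 in mean log2(CPM + 1), female minus male (two-sided permutation test with 100000 resamples, p = 0.364), with medians of 18.6 CPM in 21 females and 16.7 CPM in 25 males.

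Animal number went with the ranking. Of the 12 tendon-rich animals, 2 were numbered 1 to 20, 3 were numbered 21 to 40 and 7 were numbered 41 to 59. Of the 12 tendon-poor animals, 10 were numbered 1 to 20, and 1 came from each of the later ranges. Median Tnmd of control limbs was 8.30 CPM in 19 animals numbered 1 to 20, 22.7 CPM in 15 numbered 21 to 40 and 30.1 CPM in 12 numbered 41 to 59. The labels do not say what the numbers stand for, and the split was made after the values were seen. Each range had too few animals of one group for a comparison of the groups within it. The comparison of control limbs is given also with the number range as a term, which rests on those few animals. A slope within each range is given as well.

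Beside Tnmd, 10670 genes were fitted across the 24 control limbs, with sex as a covariate (edgeR quasi-likelihood). Because Tnmd of the same libraries chose the limbs, the fold changes describe them and no gene's p is given. A Benjamini-Hochberg adjusted p of at most 0.05 was used as a mark of size against spread, and counts of genes by that mark or by an unadjusted p are descriptions, not tests. It was met by 178 genes (1.67%), of which 163 were higher (1.53%) and 15 lower (0.141%) in tendon-rich limbs. For 15 genes every tendon-rich limb exceeded every tendon-poor limb (0.141% of genes), and for 0 genes (0.0%) the reverse held. These 15 were Cilp2, Clec11a, Col11a1, Col11a2, Col1a1, Col1a2, Cpxm2, Ecm2, Eya2, Itgbl1, Pdgfrl, Serpinf1, Ssc5d, Thbs4 and Tigd4, a list read off the values. The median log2 fold change of all genes was -0.01, with 5148 of 10670 above 0.

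Among the regulators of tendon cells, 1 of 5 measured members met that mark, which 1.53% of all genes met on the higher side. This was Egr2, a zinc finger factor, with a log2 fold change of 1.55 ± 0.40 (SE, n = 12 and 12). Its level was 1.09, 5.52 and 24.3 CPM (lowest, median, highest) in tendon-rich limbs and 1.13, 2.31 and 6.13 CPM in tendon-poor limbs. Egr2 overlapped between the groups at the low end. Its fold change was -0.13 when all 56 animals were ranked, and its slope on Tnmd was -0.27 within animals 21 to 40. Scx was at 4.63, 6.45 and 19.4 CPM against 1.71, 5.75 and 13.8 CPM, a log2 fold change of 0.36 ± 0.29. The 2 groups of limbs were interleaved in Scx. Egr1, an immediate early gene as well as a tendon regulator, had a median of 121 CPM in tendon-rich and 145 CPM in tendon-poor limbs, while its log2 fold change, which follows the mean, was 0.70 ± 0.52. Mkx was too low for the fit, but 11 of 12 tendon-rich limbs exceeded every tendon-poor limb, with medians of 2.60 and 0.405 CPM.

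Of 13 genes in a list of tendon matrix, 12 passed the low-count filter. These 12 were higher in tendon-rich limbs, as 5148 of all 10670 genes were, with a median log2 fold change of 2.28. A member could pass the filter through the tendon-rich limbs alone, and Tnmd of the same libraries made the split, so the count is a description. Chad, or chondroadherin, a leucine-rich protein that binds collagen and integrins, was at 40.2, 62.4 and 273 CPM in tendon-rich limbs and at 1.36, 6.36 and 46.6 CPM in tendon-poor limbs. Its log2 fold change of 3.23 ± 0.33 was the largest among named genes of this comparison. Angptl7, a secreted angiopoietin-like protein, followed with 49.9, 141 and 658 CPM against 3.05, 14.0 and 119 CPM, and a log2 fold change of 3.02 ± 0.41. In both genes the highest tendon-poor limb reached into the tendon-rich range. Cilp2, a cartilage intermediate layer protein, was at 23.4, 35.4 and 112 CPM against 1.09, 4.47 and 21.5 CPM, with no overlap and a log2 fold change of 2.88 ± 0.29. Cilp, the relative of Cilp2, had a smaller log2 fold change of 0.90 ± 0.22, and its slope on Tnmd was -0.06 within animals 21 to 40. Comp, the pentameric cartilage oligomeric matrix protein, had a log2 fold change of 2.65 ± 0.34. Thbs4, a thrombospondin made at muscle attachments, was at 239, 359 and 590 CPM against 53.2, 87.8 and 204 CPM, again with no overlap, and its log2 fold change was 1.90 ± 0.21. Prg4, or lubricin, which lubricates gliding surfaces, had medians of 62.5 and 12.9 CPM, and 3 of 12 tendon-rich limbs exceeded every tendon-poor limb.

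The summed level of the 13 tendon matrix genes ran from 991 to 3402 CPM in tendon-rich limbs, with a median of 1325. In tendon-poor limbs it ran from 111 to 940 CPM, with a median of 305. The 2 ranges did not meet.

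Small leucine-rich proteoglycans sit on collagen fibrils and set their diameter and spacing. All 11 members that passed the filter were higher, as 5148 of all 10670 genes were, with a median log2 fold change of 1.24. Fmod, Kera and Chad led them. Kera (keratocan) was at 15.6, 25.3 and 58.4 CPM in tendon-rich and 1.14, 4.71 and 17.6 CPM in tendon-poor limbs. Dcn (decorin), the proteoglycan that coats type I collagen fibrils, was at 278, 464 and 732 CPM against 107, 149 and 412 CPM, a log2 fold change of 1.28 ± 0.19. Ogn (osteoglycin) had medians of 52.3 and 17.0 CPM, and 11 of 12 tendon-rich limbs exceeded every tendon-poor limb. Ecm2 did not overlap between the groups, with 16.5 CPM in the lowest tendon-rich and 15.2 CPM in the highest tendon-poor limb. Lum (lumican) and Podn (podocan) had log2 fold changes of 1.08 and 0.98, but the slope of Lum on Tnmd was -0.028 within animals 41 to 59 and the fold change of Podn was -0.39 when all 56 animals were ranked. Aspn (asporin), which binds collagen, had a log2 fold change of 1.24 and Fmod one of 2.29.

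Type I collagen, the main protein of tendon, is built from 2 chains of Col1a1 and 1 of Col1a2. Col1a1 was at 310, 793 and 3115 CPM in tendon-rich limbs and at 41.1, 126 and 295 CPM in tendon-poor limbs, with a log2 fold change of 2.67 ± 0.31. Col1a2 was at 361, 742 and 3076 CPM against 55.2, 122 and 270 CPM, a log2 fold change of 2.69 ± 0.30. Neither chain overlapped between the groups. Col11a1 and Col11a2, chains of the minor fibrillar collagen that nucleates thin fibrils, had log2 fold changes of 2.46 ± 0.24 and 1.98 ± 0.23 and did not overlap either. Col3a1, the fibrillar collagen of loose connective tissue, was at 100, 199 and 526 CPM against 37.3, 87.2 and 361 CPM. Its log2 fold change was 0.97 ± 0.29, which did not meet the mark (Col3a1 was named after its values were seen). In all, 5 of 9 fibrillar collagen genes met the mark and 9 of 9 had a positive fold change. Of all 10670 genes, 1.53% met it on the higher side and 5148 were above 0.

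Of the other interstitial collagens 8 of 10 met the mark on the higher side, as 1.53% of all genes did, and 10 of 10 were above 0. Col8a2, a short-chain collagen, had a log2 fold change of 2.33 ± 0.30, Col12a1, which decorates collagen fibrils of tendon, of 2.21 ± 0.23, and Col22a1 of 1.61 ± 0.24. The level of Col22a1 was 11.2, 28.0 and 67.4 CPM in tendon-rich and 5.22, 9.12 and 18.7 CPM in tendon-poor limbs. Tigd4, a transposase-derived gene placed here with the myotendinous list, was at 8.96, 13.3 and 20.4 CPM against 2.34, 5.68 and 7.33 CPM. Of 12 basement membrane genes 1 met the mark, Lama2, the laminin chain around muscle fibres, with a log2 fold change of 0.89 ± 0.14. All 12 were above 0, as 5148 of all 10670 genes were, with a median of 0.32. Of these 12, 7 had an unadjusted p of at most 0.05, which 13.0% of all genes had in either direction.

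Of all 10670 genes, 5148 were above 0 and 1.53% met the mark on the higher side, which is the background for the lists of this paragraph. Members could pass the filter through the tendon-rich limbs alone, so the counts are descriptions. Of 17 genes that mature and cross-link collagen, 16 were above 0 and 8 met the mark. Lox, the copper enzyme that starts collagen cross-links, had a log2 fold change of 1.60 ± 0.36, and its relative Loxl2 one of 1.31 ± 0.15. Loxl2 separated the groups better, at 16.4 to 35.9 CPM against 6.94 to 16.9 CPM, with 11 of 12 tendon-rich limbs above every tendon-poor one. Of 12 matricellular genes, 12 were above 0 and 9 met the mark, with Thbs1 at 2.23 ± 0.39, Tnc (tenascin C) at 1.85 ± 0.28 and Sparc, a collagen-binding glycoprotein named after its value was seen, at 1.46 ± 0.21 on the log2 scale. Of 15 elastic fibre genes, 14 were above 0, 13 had an unadjusted p of at most 0.05 (13.0% of all genes in either direction) and 6 met the mark, led by Mfap4 (1.74 ± 0.28) and Fbln7 (1.53 ± 0.25). Ctsk, the collagen-degrading cathepsin K, Timp2 and Mmp2 were the 3 of 14 matrix proteases and inhibitors that met the mark, and 13 of 14 were above 0. Ctsk was at 5.83, 10.4 and 26.2 CPM against 0.682, 2.46 and 7.26 CPM. The TGF-beta pathway, ligands to receptors, had 0 of 12 genes at the mark and a median log2 fold change of 0.18 (edgeR quasi-likelihood; 3 of 12 had an unadjusted p of at most 0.05, against 13.0% of all genes in either direction and 7.22% on the higher side).

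Outside the lists, Wif1, a secreted inhibitor of Wnt proteins, and Itgbl1, an integrin beta-like protein, had log2 fold changes of 2.67 ± 0.42 and 2.48 ± 0.24.

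Genes that met the mark on the lower side were few (15 against 163), and the falls named here were smaller than the largest rises. By an unadjusted p of at most 0.05 the sides were closer, with 770 of 1382 genes higher. Larger falls, of the adipocyte genes Pck1 (-3.47 ± 1.13) and Thrsp (-2.71 ± 0.87), did not meet the mark. Rasd2, a small GTPase, was at 25.6, 50.5 and 92.6 CPM in tendon-rich limbs and at 62.2, 115 and 227 CPM in tendon-poor limbs, a log2 fold change of -1.17 ± 0.23. Wnt4, a secreted signalling protein, had a log2 fold change of -0.93 ± 0.20 and Rgma, a BMP co-receptor, one of -0.88 ± 0.16. Aen, a nuclease induced by p53, was at 50.2, 74.3 and 98.0 CPM against 89.1, 110 and 148 CPM, a log2 fold change of -0.70 ± 0.11. Plcd4, a phospholipase C, had one of -0.67 ± 0.16. In Rasd2, Rgma and Aen 0 of 12 tendon-rich limbs exceeded the median of the tendon-poor limbs, but the ranges overlapped.

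Endothelium, Schwann cells, smooth muscle, macrophages, fast-fibre and slow-fibre genes and transcripts of mitochondrial DNA had 0 genes at the mark. Macrophage genes were above 0 in 9 of 9 cases, where 5148 of all 10670 genes were, with a median log2 fold change of 0.82. Of these 9, 7 had an unadjusted p of at most 0.05, which 13.0% of all genes had in either direction and 7.22% on the higher side. H2-Eb1, a class II antigen-presenting gene of macrophages, dendritic cells and B cells that is on none of the lists, met the mark at 2.28 ± 0.44. It was at 3.50, 6.65 and 16.2 CPM in tendon-rich and 0, 0.871 and 5.55 CPM in tendon-poor limbs, and 9 of 12 tendon-rich limbs exceeded every tendon-poor limb. Its fold change was 2.01 ± 0.62 with the number range as a term, which did not meet the mark, and -4.15 when all 56 animals were ranked. The macrophage list had a median of 0.57 with the number range as a term, -0.80 when all 56 animals were ranked, and 1.14 without male 13, when 4 of 9 genes met the mark. The summed level of the macrophage list was 43.5, 87.4 and 136 CPM in tendon-rich and 15.2, 41.7 and 150 CPM in tendon-poor limbs. The 10 slow-fibre genes, typical of the soleus and of deep gastrocnemius, were all above 0 with a median of 0.77, and 0 of 10 had an unadjusted p of at most 0.05. Their sum ran from 1254 to 17003 CPM against 142 to 7525 CPM, so the 2 groups overlapped widely. Of 14 markers of fibro-adipogenic progenitors, the resident fibroblasts of muscle, 12 were above 0 and 7 had an unadjusted p of at most 0.05, with a median of 0.42. Cd34 alone met the mark (0.50 ± 0.12, named after its value was seen). Without male 13 the median was 0.59 and 5 of 14 met the mark. The summed level of these markers had medians of 1788 CPM in tendon-rich and 1087 CPM in tendon-poor limbs. Most genes of cartilage and bone were near the detection limit, and 2 of 11 were fitted. Their sums ran from 9.90 to 64.3 CPM in tendon-rich and from 10.7 to 24.3 CPM in tendon-poor limbs, with medians of 21.8 and 15.1. The 2 genes fitted, Sox9 (1.95 ± 0.62) and Alpl (0.03 ± 0.21), did not meet the mark. Of 7 satellite cell markers 4 were fitted, and 2 met the mark, as 1.53% of all genes did on the higher side. These were Chodl (1.25 ± 0.22) and Vcam1 (1.19 ± 0.30), while Myod1 had 0.10 ± 0.37 and Cdh15 -0.18 ± 0.12. Vcam1 is not specific to satellite cells, and its fold change was -1.52 when all 56 animals were ranked. Nuclear genes of oxidative enzymes and immediate early genes had 0 of 14 and 0 of 8 at the mark, and no T, B or NK cell gene passed the filter. The part that these cell types played in the collagen and proteoglycan differences was not tested.

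Adipocyte markers rested on 1 animal. The sum of 10 markers was 93.1, 239 and 430 CPM in tendon-rich limbs. In tendon-poor limbs it was 5231 CPM in male 13, which also had the lowest Acta1 of the group (22115 CPM), and 153 to 426 CPM in the other 11. The median log2 fold change of the 8 markers fitted was -1.57 with male 13 and -0.12 without it. Without male 13, 321 genes met the mark in place of 178, with 285 higher and 36 lower, and the fibrillar collagens at the mark went from 5 to 7 of 9, Col3a1 among them (1.26). The tendon matrix list stayed at 12 of 12 without this animal. Leaving out the 2 limbs of highest Tnmd, of females 46 and 50, gave 148 genes.

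With the number range as a term, 50 genes met the mark, 48 of them higher, and the tendon matrix list held 10 of 12 with a median log2 fold change of 1.85. Chad then had 2.64 ± 0.38, Col1a1 2.21 ± 0.44 and Fmod 1.83 ± 0.33 on the log2 scale. Group and range were set apart in that fit only by females 5, 7, 30 and 45. No range held males of both groups. None of Rasd2, Rgma and Aen met the mark in that fit, with log2 fold changes of -1.31, -0.71 and -0.47. Within the 3 ranges, the slope of a gene on log2(Tnmd CPM + 1) replaced the groups. The median slope of the tendon matrix genes was 0.85 in animals 1 to 20, 0.89 in animals 21 to 40 and 0.55 in animals 41 to 59, with 9, 0 and 3 of 13 genes at the mark. The list's median was above 0 in each range. Within a sex, 125 genes met the mark in males and 2 in females, where 5 limbs stood against 4. In males every tendon-poor animal was numbered 1 to 20 and no tendon-rich animal was. Group and number range therefore cannot be told apart in males. The tendon matrix median was 2.49 in males and 1.99 in females, and the difference between the sexes was not tested.

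Over all 46 control limbs, the genes whose level ranked most like that of Tnmd were again matrix genes. The Spearman correlation of log2(CPM + 1) with Tnmd was 0.90 for Thbs4, 0.90 for Serpinf1, 0.90 for Fmod, 0.89 for Cilp2 and 0.89 for Ssc5d, among 10627 genes. Itgbl1, Cpxm2, Col11a1 and Angptl7 followed, and then Col1a2 (0.87), Col8a2 and Col12a1. Serpinf1 encodes pigment epithelium-derived factor, a secreted serpin that binds collagen. The lowest correlations were -0.63 for Aen, -0.62 for Rgma and -0.57 for Rasd2. These values are descriptions over 46 libraries, and each gene is read from the same library and total as Tnmd.

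The cast limb of the same animals was not used in the ranking and shows how far the split extends to the other leg. Tnmd in cast limbs was 0.787, 21.1 and 164 CPM in tendon-rich animals and 2.48, 9.30 and 48.0 CPM in tendon-poor animals. The mean log2(CPM + 1) was 0.77 higher in tendon-rich animals (two-sided permutation test with 100000 resamples, p = 0.246), and 8 of 12 of them exceeded the tendon-poor median. The highest and the lowest cast limb of the 24 both belonged to tendon-rich animals. In males the difference was 1.21 (permutation p = 0.151, 7 against 8) and in females -0.10 (permutation p = 0.938, 5 against 4). In males the number range fixed the group. The fit used for the other genes, which follows the mean and has sex as a covariate, gave a larger difference. There Tnmd was 1.62 ± 0.61 higher in tendon-rich animals on the log2 scale (edgeR quasi-likelihood, unadjusted p = 0.0131). The tendon-rich mean of 32.8 CPM leans on 1 library, of male 54, at 164 CPM. The next tendon-rich cast limb, of female 43, had 59.4 CPM.

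Across 10818 genes in the cast limbs, 0 (0.0%) differed between tendon-rich and tendon-poor animals at an adjusted p of at most 0.05 (edgeR quasi-likelihood, Benjamini-Hochberg), and 975 (9.01%) had an unadjusted p of at most 0.05. By limma voom 0 genes and by DESeq2 30 genes passed. The smallest edgeR values belonged to Kcnf1, a silent potassium channel subunit, and to Serpinf1. Kcnf1 was at 1.37, 6.76 and 92.8 CPM in tendon-rich and 0.227, 2.76 and 10.2 CPM in tendon-poor animals, with a difference in log2 of 2.74 ± 0.49 and an adjusted p of 0.0907 (edgeR). Serpinf1 was at 78.7, 115 and 285 CPM against 22.9, 59.5 and 131 CPM, with a difference in log2 of 1.03 ± 0.19 and an adjusted p of 0.0909 (edgeR). All 12 tendon-rich animals exceeded the tendon-poor median of Serpinf1 in the cast limb, and the ranges overlapped. Nrep (0.88 ± 0.17), Dpep1, a dipeptidase (1.00 ± 0.20), and Tanc1 (-0.83 ± 0.17), a synaptic scaffold, came next, with edgeR adjusted p of 0.0949, 0.0949 and 0.0956.

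The tendon matrix list had 0 of 12 genes passing (edgeR), and 11 of 12 had a positive fold change, with a median of 1.03 against -0.01 for all genes. The median was 0.50 without animals 46 and 54, which had the lowest and highest cast-limb Tnmd of the tendon-rich group, -0.01 in females and 1.54 in males. Of these 12 genes 5 had an unadjusted p of at most 0.05, which 9.01% of all genes had in either direction and 4.58% with a positive fold change. Chad had 2.19 ± 0.69 (edgeR, adjusted p = 0.329), Angptl7 2.01 ± 0.59 (0.329) and Fmod 1.26 ± 0.52 (0.470) on the log2 scale. In Angptl7, 7 of 12 tendon-rich animals exceeded every tendon-poor animal. Small leucine-rich proteoglycans had a positive fold change in 11 of 11 cases with a median of 0.66, and Dcn was at 166, 518 and 839 CPM against 150, 269 and 486 CPM (log2 difference 0.87 ± 0.20, adjusted p = 0.204 by edgeR). Ogn had 0.91 ± 0.24 (edgeR, adjusted p = 0.276). Markers of other cells lay above 0 in the same limbs, with 0 at an adjusted p of at most 0.05. Of 11 macrophage genes 11 were above 0, with a median of 0.86 and 6 at an unadjusted p of at most 0.05. Of 14 progenitor markers 13 were above 0, with a median of 0.44 and 5 at that p, while 5128 of all 10818 genes were above 0. With the number range as a term the medians were 0.02 and 0.11. H2-Eb1 was at 2.06, 21.5 and 90.5 CPM against 0.224, 2.55 and 80.9 CPM (log2 difference 1.97 ± 0.58, adjusted p = 0.329 by edgeR, and 0.37 ± 0.71 with the number range as a term). The part of these cells in the matrix differences was not tested. With the number range as a term 2 genes passed, both lower, and in males alone 51, 45 of them higher. Number range and group are nearly the same split here, so they cannot be told apart in the cast limbs. In males the number range fixed the group.

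Tnmd of the 2 limbs of an animal was compared directly in all 46 animals, in a family of 9 genes of which 8 are reported. Pearson's r of log2(CPM + 1) was 0.202 (permutation p = 0.177) and Spearman's rho 0.261 (permutation p = 0.0799), with Benjamini-Hochberg adjusted values of 0.379 and 0.164 over the 9 genes. Without the 2 animals farthest from the median, r was 0.118. Fmod had r = 0.0895 (permutation p = 0.553) and rho = 0.274 (permutation p = 0.0651), adjusted to 0.711 and 0.164. None of the 8 genes reported passed after adjustment. Their r ran from 0.0197 for Plin1, an adipocyte gene, to 0.232 for Chad. Tnmd was higher in the cast limb in 24 animals and lower in 22.

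The same r was computed within each number range. In the 19 animals numbered 1 to 20, r was 0.631 for Tnmd (permutation p = 0.00399) and 0.718 for Fmod (permutation p = 0.00042). Of these, animals 1 to 10 were female and animals 11 to 20 male. Tnmd ran from 6.29 to 32.9 CPM in control and 9.05 to 48.0 CPM in cast limbs of these females. In these males it ran from 0.227 to 21.6 and from 2.48 to 13.5 CPM. Sex was not a term, so r here mixes a difference between the sexes with likeness between the limbs. In the 15 animals numbered 21 to 40 they were -0.0719 and 0.0312 (permutation p = 0.791 and 0.916). In the 12 animals numbered 41 to 59 they were 0.0485 and -0.201 (permutation p = 0.878 and 0.536). These values within ranges were added after the data were seen and are not adjusted, and the difference between ranges was not tested. The control limbs with the highest Tnmd, of females 46 and 50, had 78.6 and 60.0 CPM, and their cast limbs 0.787 and 7.62 CPM.

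**Figure D2:**
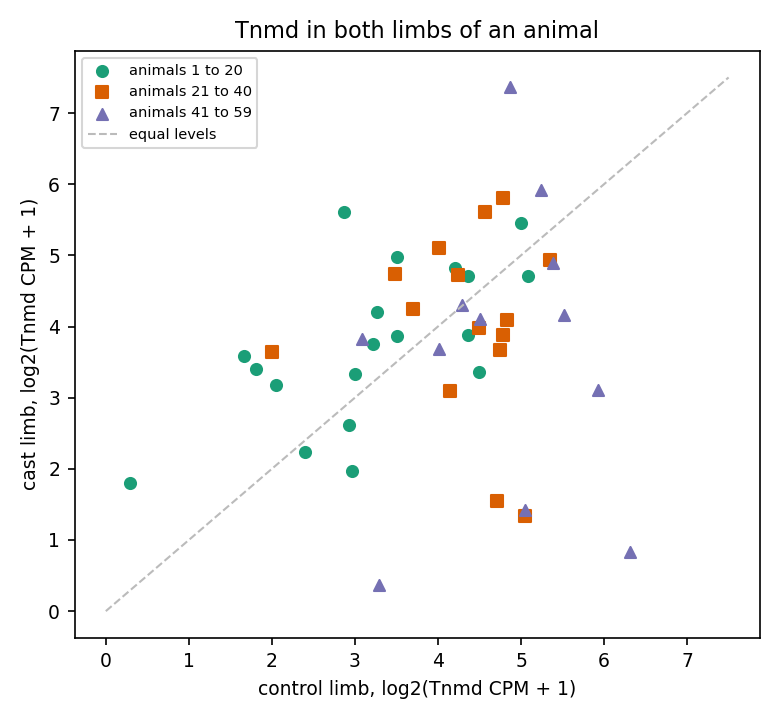
Tnmd as log2(CPM + 1) in the control limb (horizontal) and the cast limb (vertical) of 46 animals, marked by animal number, with a dashed line at equal levels. Pearson's r, with no term for sex, was 0.631 in animals 1 to 20, -0.0719 in animals 21 to 40 and 0.0485 in animals 41 to 59. The difference between ranges was not tested.

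Which genes go with Tnmd was asked again in the 46 cast limbs, each against its own log2(Tnmd CPM + 1), with sex as a covariate. Of 12442 genes, 275 (2.21%) had a slope at an adjusted p of at most 0.05 (edgeR quasi-likelihood, Benjamini-Hochberg), 92 rising (0.739%) and 183 falling (1.47%) with Tnmd. Slopes are log2 changes of a gene per unit of log2(Tnmd CPM + 1). Tnmd's own slope on this scale was 1.12. Of the 13 tendon matrix genes 12 rose, with a median slope of 0.74 against -0.004 for all genes. Chad rose by 1.44 ± 0.15, Cilp2 by 1.24 ± 0.08, Fmod by 1.00 ± 0.09, Kera by 0.99 ± 0.08 and Angptl7 by 0.98 ± 0.12 (SE, n = 46). Col11a1 (0.81 ± 0.08), Ptx4, a long pentraxin (0.74 ± 0.10), Comp (0.73 ± 0.10), Col12a1 (0.61 ± 0.07), Thbs4 (0.56 ± 0.08), Prg4 (0.50 ± 0.11) and Clec11a, a secreted lectin (0.48 ± 0.07), also rose. The exception was Cilp, with 0.04 ± 0.09 (edgeR, adjusted p = 0.862). Within the number ranges the median slope of the tendon matrix list was 0.57, 1.02 and 0.75, with 2, 7 and 4 of 12 genes passing. In females 12 of 13 and in males 10 of 12 passed.

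Of the regulators, Mkx rose (0.50 ± 0.08; edgeR, adjusted p = 6.03e-05), while Scx had 0.24 ± 0.08 (edgeR, adjusted p = 0.130) and Egr1 0.17 ± 0.14. The other genes with the steepest rise included Col8a2 (0.68 ± 0.06), Col22a1 (0.59 ± 0.06), Abi3bp (0.53 ± 0.06), Cpxm2, a carboxypeptidase-like protein (0.46 ± 0.05), and Tigd4 (0.45 ± 0.07). Col22a1 and Tigd4 were the 2 of 4 genes of the myotendinous list that rose. Chodl, a lectin, was the 1 of 6 genes of the satellite cell list that rose, by 0.54 ± 0.08. Of the genes tested in both, 178 met the mark in control limbs and 208 passed in cast limbs. They had 48 in common, which is 27.0% of the former and 23.1% of the latter, and 47 of the 48 had the same direction.

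Collagen I stood lower in this order. Col1a2 rose by 0.34 ± 0.07 (edgeR, adjusted p = 0.00467), and Col1a1 had 0.31 ± 0.09 (edgeR, adjusted p = 0.0512). In the 46 control limbs the same slopes were 0.86 ± 0.07 and 0.87 ± 0.07, whereas the slopes of Fmod were 0.86 ± 0.06 in control and 1.00 ± 0.09 in cast limbs. Serpinf1 had a slope of 0.61 ± 0.04 in control limbs and 0.15 ± 0.06 (edgeR, adjusted p = 0.190) in cast limbs, and Dcn 0.43 ± 0.05 and 0.18 ± 0.06 (edgeR, adjusted p = 0.0783). The difference of slopes between the limbs was not tested. In Spearman's terms, Col1a2 went from 0.87 in control to 0.48 in cast limbs and Serpinf1 from 0.90 to 0.44, while Cilp2 had 0.89 and 0.95.

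**Figure D3:**
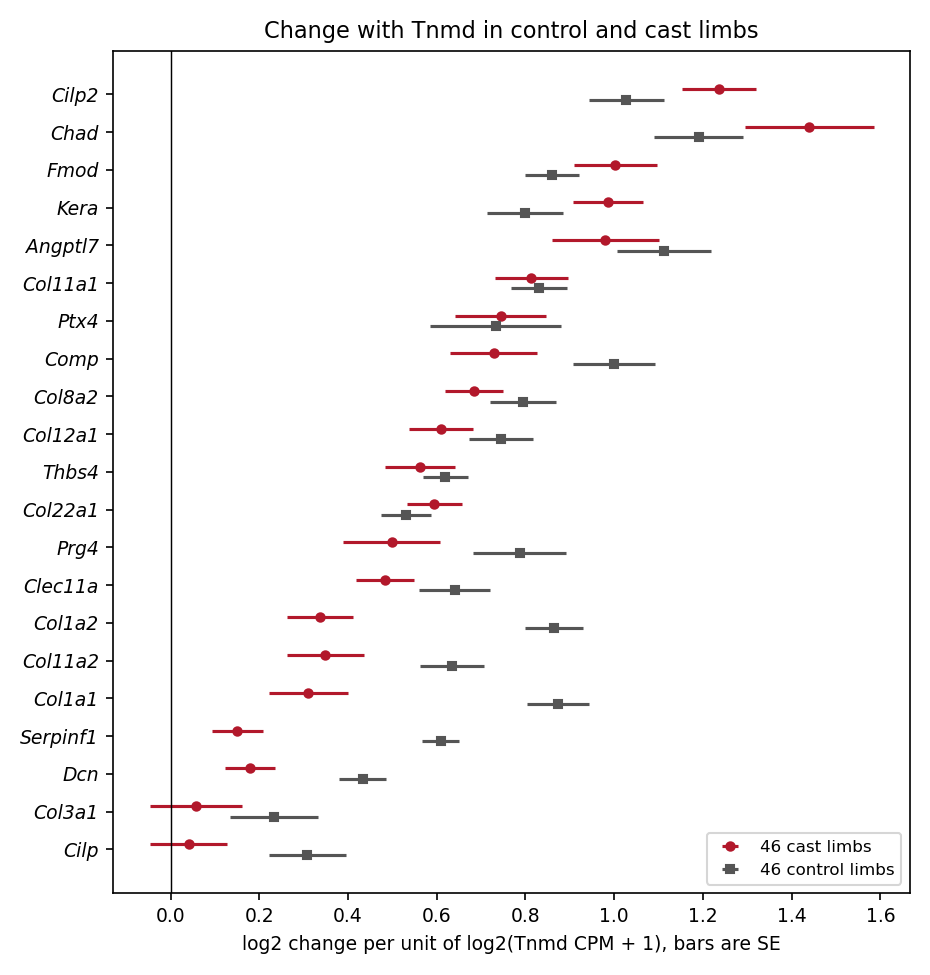
Slope of each gene on log2(Tnmd CPM + 1) with its SE, in 46 cast limbs (red circles) and 46 control limbs (grey squares). Tendon genes such as Fmod (1.00 and 0.86) lie close together in both limbs, and Col1a1 (0.31 and 0.87), Col1a2 and Serpinf1 lie apart.

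Other matrix lists rose in part. Of the small leucine-rich proteoglycans 6 of 12 rose, which were Chad, Fmod, Kera, Ogn (0.27 ± 0.06), Aspn (0.27 ± 0.07) and Ecm2 (0.21 ± 0.05). Of 10 fibrillar collagens 3 rose, Col1a2, Col11a1 and Col11a2 (0.35 ± 0.09). Collagen processing had 0 of 19 and the TGF-beta pathway 0 of 13 genes passing (edgeR; 6 and 2 had an unadjusted p of at most 0.05, as did 14.8% of all genes in either direction and 6.12% with a positive slope). Matricellular genes gave Wisp1 (0.59), Tnc (0.43) and Thbs2 (0.29) of 14. Elastic fibre genes gave Fbln7 (0.33 ± 0.06) and Mfap4 (0.27 ± 0.07) of 17, and the basement membrane gave Lama2 (0.18 ± 0.05) of 12. Slow-fibre, fast-fibre, Schwann cell and macrophage lists had 0 genes passing in edgeR, where 0, 2, 1 and 0 of their genes had an unadjusted p of at most 0.05.

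Of 10 adipocyte markers 9 fell, with a median slope of -0.70. Pck1, an enzyme of glycerol synthesis in fat, fell by 1.03 ± 0.19, Adrb3, the beta-3 adrenergic receptor of adipocytes, fell by 0.92 ± 0.15 and Fabp4, their fatty acid binding protein, fell by 0.51 ± 0.09. Outside the list, Lipe, the hormone-sensitive lipase, fell by 0.48 ± 0.08 and Aqp7, a glycerol channel, fell by 0.42 ± 0.06. Krt19, a keratin of simple epithelia, fell by 1.16 ± 0.15 and Prlr, the prolactin receptor, fell by 1.03 ± 0.16. Of 10 endothelial genes 2 fell, Cldn5 (-0.21 ± 0.05) and Kdr (-0.20 ± 0.05). None of the 10 had a slope above 0, as 5879 of all 12442 genes had, and the median was -0.10. An unadjusted p of at most 0.05 (edgeR) was reached by 7 of the 10 and by 14.8% of all genes in either direction. Smooth muscle and pericyte genes had 0 of 8 passing, 1 of 8 above 0 and 6 of 8 at that unadjusted p, with a median of -0.11.

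The cast limbs of females 46 and 47 carried much of this side. They had the lowest Tnmd of the 46, at 0.787 and 0.284 CPM, on 3 and 1 counts of the gene. The sum of the 10 adipocyte markers was 3158 CPM in female 46 and 6369 CPM in female 47, against a median of 307 CPM in the other 44 cast limbs. Male 31, with 1.92 CPM of Tnmd, had the highest sum, 6835 CPM, and beyond these 3 limbs the sum reached 2579 CPM, in female 50. Krt19 was at 219 CPM in female 46 and 104 CPM in female 47, and at no more than 33.9 CPM in the other 44 limbs. Prlr was at 91.3 and 15.0 CPM there. Acta1 was at 38105 and 32604 CPM in the 2 libraries, so muscle transcripts were not low in them. Without these 2 libraries 75 genes passed, 62 rising and 13 falling. The adipocyte list then had 2 of 10 genes passing, Fabp4 (-0.45 ± 0.11) and Pck1 (-1.09 ± 0.25), with a median slope of -0.64. Krt19 had -0.33 ± 0.22 (edgeR, adjusted p = 0.701), Prlr was too low for the fit, and no endothelial gene passed. Of the tendon matrix list 11 of 13 still rose, with a median of 0.67, and Prg4 had 0.42 ± 0.11 (edgeR, adjusted p = 0.0694). Over the 46 control limbs the adipocyte list had a median slope of -0.66 with 0 of 10 genes at the mark, and its median was 0.18, -0.03 and -0.89 within the 3 number ranges.

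**Figure D4:**
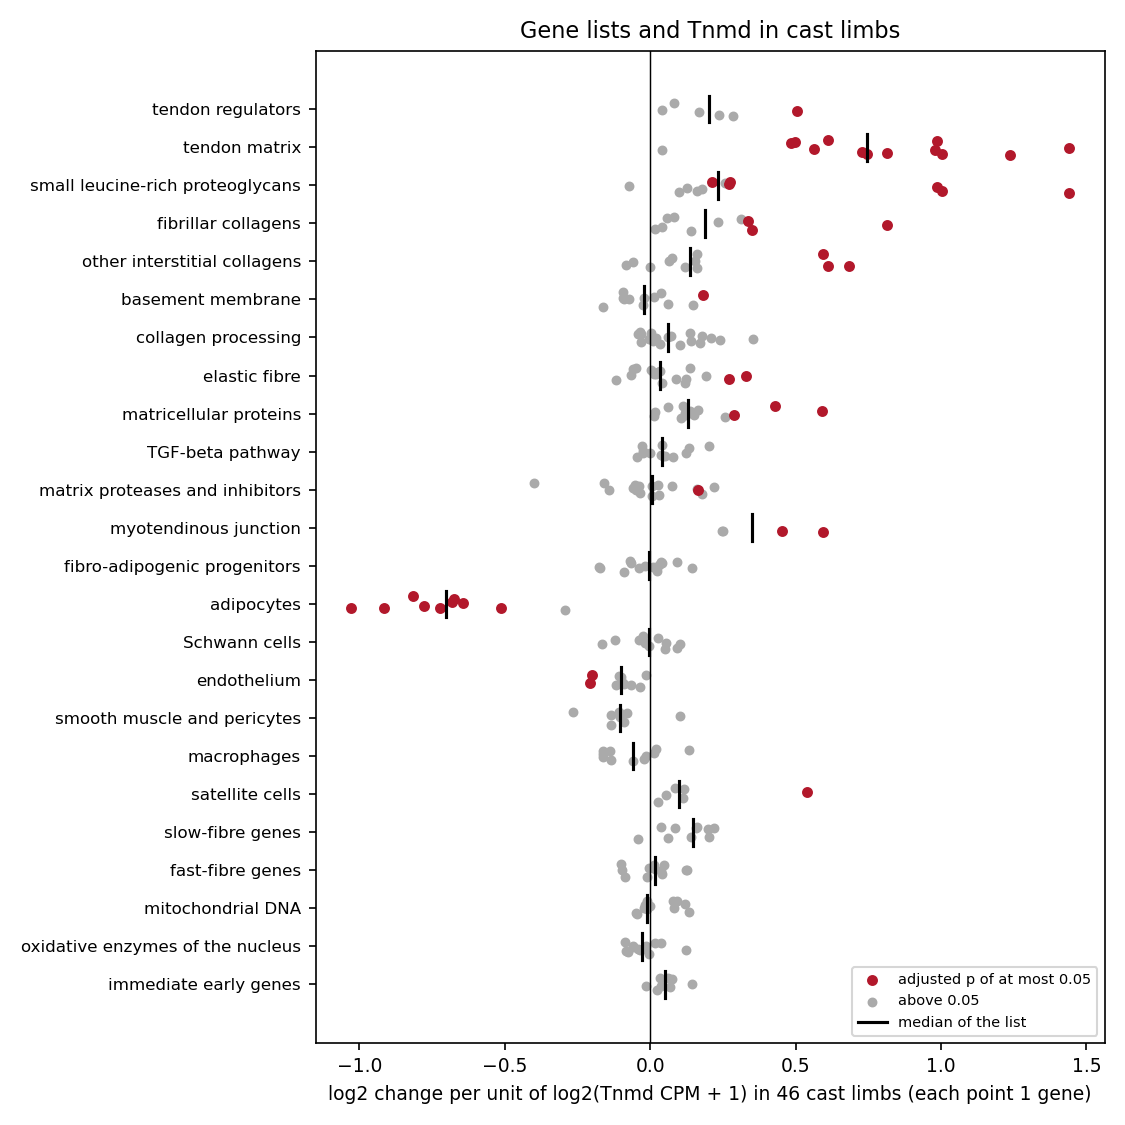
Slopes on log2(Tnmd CPM + 1) in 46 cast limbs by gene list, each point 1 gene, red where the edgeR adjusted p was at most 0.05, with the list's median as a black bar. The tendon matrix list (median 0.74) stands to the right and the adipocyte list (median -0.70) to the left.

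**Figure D5:**
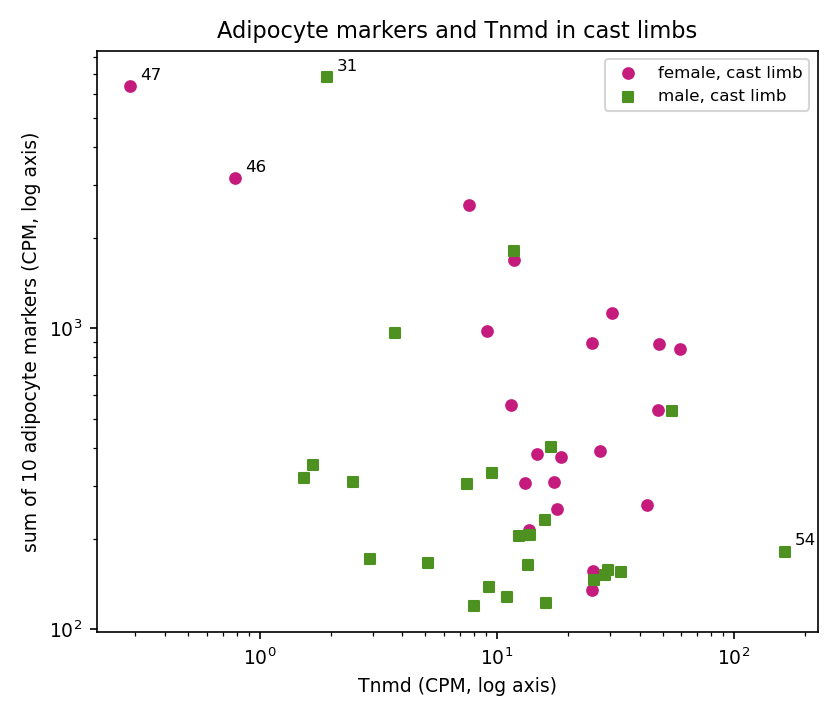
Sum of 10 adipocyte markers against Tnmd (CPM, log axes) in the 46 cast limbs, females as circles and males as squares, with animals 31, 46, 47 and 54 labelled. Animals 46 and 47 combine the lowest Tnmd (0.787 and 0.284 CPM) with sums of 3158 and 6369 CPM, while male 54 has the highest Tnmd (164 CPM) and a sum of 181 CPM.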

How the data were processed

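RNA of the gastrocnemius was sequenced as stranded total RNA depleted of ribosomal RNA, per the labels' protocols. The deposited tables, 1 per sex, hold raw read counts for 32544 gene symbols, and 0 rows name no gene. How reads were aligned and counted, and on which build, is not given in the sources used, so genes are named by symbol, and the promoter sequences (GRCm38.p6) were matched by symbol alone. Groups, sex and limb come from the labels, and the ranking from Tnmd. Total counts of the 92 libraries used ran from 1716485 to 9995936, without molecular identifiers, which limits genes of low expression. The members, lists, rule for naming genes and alternatives were chosen with earlier results of these data known.

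CPM used the column sum. All fits across genes used edgeR 4.0.16 under R 4.3.3 (filterByExpr, TMM, quasi-likelihood, sex as a covariate), and p-values were adjusted by Benjamini-Hochberg over all genes fitted, with a threshold of 0.05. Errors of log2 fold changes and slopes are SE. Correlations and single values were tested by permutation with 100000 resamples on log2(CPM + 1). Named are Tnmd and members of the tendon and proteoglycan lists; from each other list up to 4 genes by cast-slope p and 4 by control fold; in control limbs the 12 largest and 12 smallest folds at the mark with an average log2 CPM of at least 1; in cast fits the 12 smallest p per direction; and the 12 genes most and 6 least like Tnmd. Predicted genes were left out, and 1 gene compared between the limbs is not reported here. The fits were tested on simulated data. Counts were drawn gene by gene for fixed groups or a fixed predictor, so genes did not vary together and number range was not simulated. The errors below therefore do not measure those of fits where Tnmd of the same libraries made the groups or the predictor. In the control limbs 50% of 1.5-fold and 78% of 2-fold changes between the groups were recovered, with 3 genes called in error. In the grouped cast limbs 53% and 84% were recovered, with 7. In the slope over cast limbs 93% and 100% were recovered, with 7. There the folds are per unit of log2(Tnmd CPM + 1), so these percentages are not comparable with those of the grouped fits. Each animal gives 1 library per limb and is the unit of replication. Results without males 15 and 16 are among the alternatives. Other alternatives were DESeq2 1.42.0 and its size factors, limma voom 3.58.1, other filters, total counts, other rankings, each sex alone, and, added after the data were seen, number ranges and single libraries left out.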

Additional observations from a re-analysis of the deposited data

Results flagged for a closer look

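In the cast limbs, the slope on Tnmd differed between the sexes for 10 of 12959 genes (edgeR interaction, adjusted p of at most 0.05), and 1009 had an unadjusted p of at most 0.05. Krt19 was among them: its slope in males exceeded that in females by 1.74 ± 0.31 (edgeR, adjusted p = 0.00488). Csn3, a milk casein, and Aqp5, a water channel of secretory epithelia, were others, with differences of 2.71 ± 0.47 and 2.22 ± 0.43 (edgeR, adjusted p = 0.00379 and 0.0126), named after their values were seen. Without the cast libraries of females 46 and 47, where Krt19 was at 219 and 104 CPM, 2 of 12545 genes passed and Krt19 had a difference of 1.41 (edgeR, adjusted p = 0.799).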

How the results depend on the processing

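No paired analysis was possible because the tendon-rich and tendon-poor groups hold different animals, and no animal number is shared between them. In the control limbs, 178 genes at the mark became 50 with the number range as a term, 2 in females, 311 when all 56 animals were ranked, 323 with a slope over 46 limbs, 32, 0 and 9 with slopes within the 3 number ranges, and 321 without male 13. Ranked over all 56 animals, 81 of 311 genes were higher and 230 lower, with 7 of 12 tendon-poor limbs kept, and Egr2 turned to -0.13, H2-Eb1 to -4.15, Podn to -0.39 and Vcam1 to -1.52. Within number ranges, Egr2, Cilp and Vcam1 turned to -0.27, -0.059 and -0.090 (animals 21 to 40), Vcam1 to -0.123 (animals 1 to 20) and Lum to -0.028 (animals 41 to 59). For the grouped cast limbs, 0 genes became 2 with the number range, 30 with DESeq2, 51 in males and 52 with a slope on control-limb Tnmd. For the cast-limb slope, 275 became 1530 in all 56 animals, 1244 with Fmod in place of Tnmd, 462 without a filter, 75 without the 2 libraries of lowest Tnmd, 32 in males, and 2, 15 and 10 within the number ranges. Cilp turned to -0.44 and -0.027 in the first and the second range and -0.036 in males. Mkx, Prg4, Scx and Tnc turned to -0.018, -0.36, -0.20 and -0.276, and Kdr to 0.053, in the first range.

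Between the limbs, r of Tnmd was -0.064 in females, -0.072 in animals 21 to 40 and 0.631 in animals 1 to 20. For Fmod it was -0.206 in females, -0.066 in all 56 animals, 0.718 in animals 1 to 20 and -0.201 in animals 41 to 59. In females r was -0.222 for Comp, -0.189 for Thbs4 and -0.222 for Chad. In animals 41 to 59 it was -0.107 for Comp, -0.242 for Chad and -0.012 for Scx, in animals 21 to 40 it was -0.00022 for Chad and -0.401 for Plin1. Thbs4 had -0.055 in all 56 animals and Plin1 -0.149 in males. The group difference of Tnmd in cast limbs was -0.097 in females. Ranked by TMM values or over all 56 animals, the groups held 5 females each, a difference of 0. The causes of these shifts were not tested.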
